A study of Mus musculus with 4 samples.

Results

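Hilpda knockout and wild-type mouse macrophages were compared after 12 h with fatty acids, with 1 array on each side, which are 2 of the 4 arrays of the study. The knockout array held RNA of bone marrow-derived macrophages from HilpdaΔMΦ mice, and the wild-type array held RNA of the same cells from their Hilpda flox/flox littermates, so the controls carried the floxed allele. The donors were 8 to 12 weeks old, and their marrow was differentiated into macrophages in medium that L929 cells had conditioned, which supplies the growth factor CSF1. All cells received 600 µM palmitate and oleate, mixed 1:2 and carried on albumin. The other 2 arrays hold both genotypes after 24 h of the same treatment and are given only beside the 12 h values. The RNA on each array was pooled from 3 samples. Which promoter drives Cre in these mice is not stated in the labels, and cells without added fatty acids were not analysed here. With 1 array of pooled RNA a side, no difference between the genotypes was tested, and each value below describes these arrays. Genes were taken from probe sets with a single symbol, and the 9089 of 22180 genes at or above the 60th percentile of mean level, a log2 value of 4.20, were kept. Cxcl2, with a mean level of 4.20 and a 12 h difference of -0.39, lay just inside that limit, and Col3a1, with a mean level of 4.19 and a difference of -0.47, just outside.

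HILPDA is a small protein of the lipid droplet surface that binds and inhibits adipose triglyceride lipase, the enzyme encoded by Pnpla2 that opens the hydrolysis of stored triglyceride. Its gene is switched on by hypoxia-inducible factors and by fatty acids. In macrophages that take up fatty acids it holds back the breakdown of droplets, and without it fatty acids leave the droplet store sooner and can act as ligands, fuel or membrane components.

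Array signals were close to each other on the whole, and the spread between them depended on how bright a gene was. The 12 h arrays correlated at 0.988 (Pearson) over all 41345 probe sets, as a description of arrays that were normalized together. Over the genes kept, the difference, knockout minus wild type on the log2 scale, had a median of 0.00, an SD of 0.18 and a central 95% from -0.40 to 0.37. In the dimmest of 5 equal bands of mean level the SD was 0.27 and 4.13% of genes were past 1.5-fold. In the brightest band the SD was 0.11 and 0.055% of genes were past that size. Over 1405 receptor genes for odours, pheromones and trace amines, most of which macrophages do not use, the SD was 0.28 and 4.48% were past 1.5-fold, close to the values of the dimmest band. Unlike the bands, these receptor genes were taken without the level limit, at mean levels from 1.18 to 11.4. Probe sets of the same gene agreed little in the size of the difference. Among 259 genes with 2 probe sets past the level limit, the gap between the pair had a median size of 0.15. Of these pairs 53.7% had the same sign, and the correlation across genes was 0.18. None of the 259 had its brighter probe set past 1.5-fold, so these pairs do not cover the genes past that size.

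**Figure D1:**
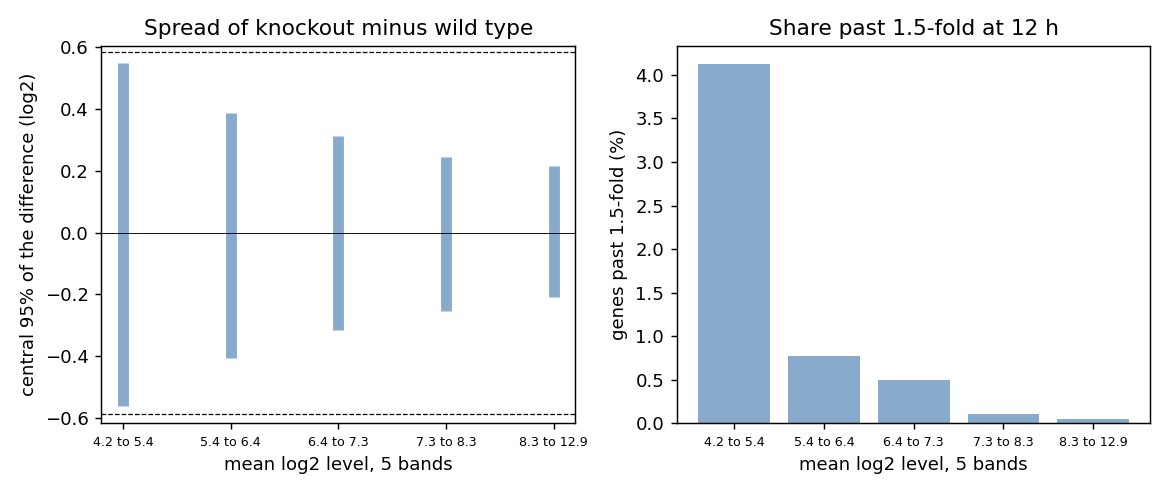
Spread of the 12 h difference by brightness: the left panel gives the central 95% of knockout minus wild type (log2) in 5 equal bands of mean log2 level, with dashed lines at 1.5-fold, and the right panel the percent of genes past 1.5-fold in each band. The share runs from 4.13% in the dimmest band to 0.055% in the brightest.

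Hilpda itself was lower in the knockout array, though by less than 1.5-fold. The log2 levels at 12 h were 5.93 (wild type) and 5.41 (knockout), and those at 24 h were 5.47 and 5.27. The wild-type 12 h array was thus the highest of the 4 and the knockout 24 h array the lowest. The 12 h difference was -0.51, or 1.43-fold, and 103 of the 9089 genes had a difference as low or lower. Neither the floxed exons nor the position of the probe set within the gene is stated in the labels, so the value checks the genotype only in part. None of the 20 expressed genes on each side of Hilpda on its chromosome was past 1.5-fold at 12 h, and their median difference was -0.03. The RefSeq promoter table for GRCm38.p6 holds 2 start sites for Hilpda. The 250 bases before the second, on the plus strand at chr6:29272376-29272625, are shown because they carry ACGTG, the core of the hypoxia response element, in capitals 43 bases before the start:
Hilpda: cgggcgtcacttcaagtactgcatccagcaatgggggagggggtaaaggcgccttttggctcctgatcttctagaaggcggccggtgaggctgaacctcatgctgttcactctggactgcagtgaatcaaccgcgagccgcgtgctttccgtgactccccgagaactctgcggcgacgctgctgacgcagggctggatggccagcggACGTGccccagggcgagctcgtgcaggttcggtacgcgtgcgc
ACGTG, read on both strands, occurs in this window in 20 of the 32 hypoxia-inducible and glycolysis genes that matched the table, or 62.5%, against 26.4% of the 7343 genes kept that matched and 18.5% of all 27025 genes of the table. A match describes letters only and is neither a bound site nor a cause. At 12 h, 13 of the 35 genes of that list were above 0 and 22 below, with a median of -0.04 and none past 1.5-fold. Pgam1, a glycolytic enzyme gene, lay highest at 0.37.

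Past 1.5-fold at 12 h were 101 of the 9089 genes, or 1.11%, with 42 higher in knockout (0.462%) and 59 lower (0.649%). At 1.3-fold 207 were higher (2.28%) and 253 lower (2.78%), in all 5.06%, and at 2-fold 3 on each side (0.033% each, in all 0.066%). Acot9 at 0.59 and Nupr1l at -0.59 lay just inside the limit, and Ednrb at 0.58 and Col1a1 at -0.58 just outside. The 101 genes were dim, with a median level of 4.89 against 6.82 for all genes kept, and 75 of them lay in the dimmest band. Of the 59 lower genes, 12 belonged to the lists of cholesterol synthesis, stromal and matrix genes or contractile genes, and 47 to none of these. Over 67 pathway and family lists with at least 3 members kept, 27 of the 101 genes fell in a list and 74 in none, and of all genes kept 1325 (14.6%) fell in a list.

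**Figure D2:**
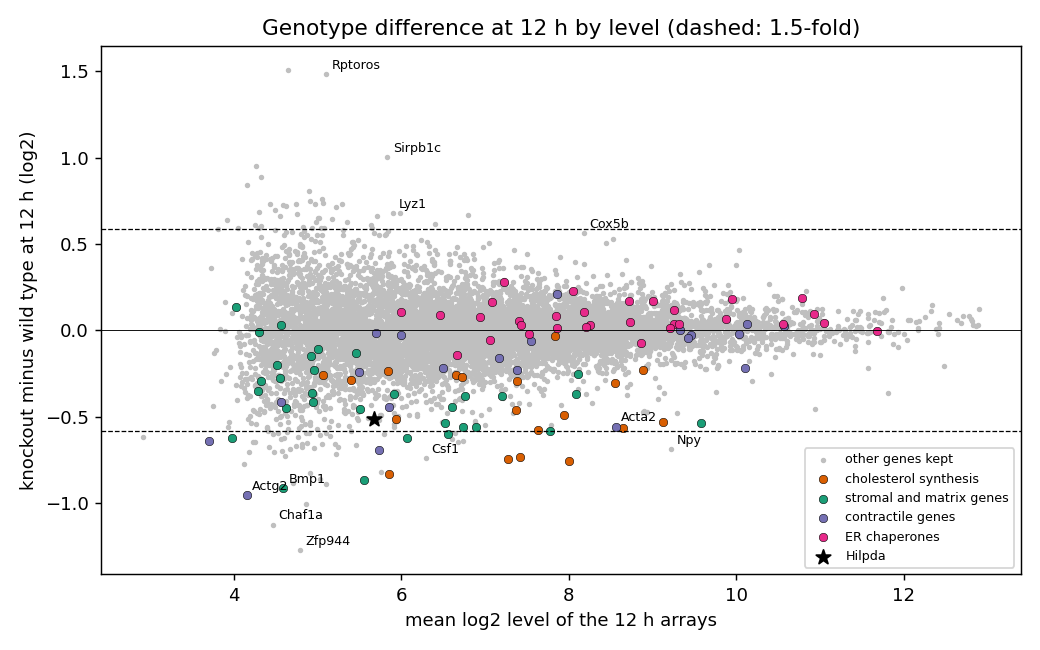
Difference between knockout and wild type at 12 h (log2) against the mean log2 level of the 12 h arrays, 1 point per gene kept, with dashed lines at 1.5-fold and selected lists in colour. Cholesterol synthesis and stromal and matrix genes lie mostly below 0 at all levels, ER chaperones mostly above 0, and the widest scatter is at the dim end.

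The 24 h arrays, which share no array with the 12 h comparison, give a second value for each gene. Of the 59 lower genes, 40 (67.8%) were also below 0 at 24 h and 15 were lower by at least 1.5-fold again. Of the 42 higher genes, 24 (57.1%) were above 0 at 24 h and 5 were past 1.5-fold again. Over all genes kept 54.8% had the same sign at both times, and 411 genes (4.52%) were past 1.5-fold at 24 h, 212 higher (2.33%) and 199 lower (2.19%). For 39 of the 101 genes the wild-type and the knockout array of 12 h were the highest and the lowest of all 4. For 40 the knockout 12 h array stood at one end without the wild-type one at the other, and for 21 the reverse held. Over all 9089 genes kept these counts were 733, 3474 and 3223. Genes picked for a large 12 h gap tend to have the 12 h arrays at the ends. The 15 genes lower at both times were Bmp1, Csf1, Sema7a, Ifit1, Cnn3, Scd1, Nectin1, Rgs16, Ehd2, Ighm, Postn, Pdgfra, Adgre4, Ccn2 and Vgll3, and the 5 higher at both were Acot9, Matn2, Sirpb1c, Rptoros and 6430590A07Rik. The level limit was set on the mean of the 4 arrays, and 9 of the 101 genes, 3 higher and 6 lower, had a 12 h mean under it. Among the 20 these were Ehd2, Pdgfra, Adgre4 and Matn2, which passed through their 24 h levels.

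**Figure D3:**
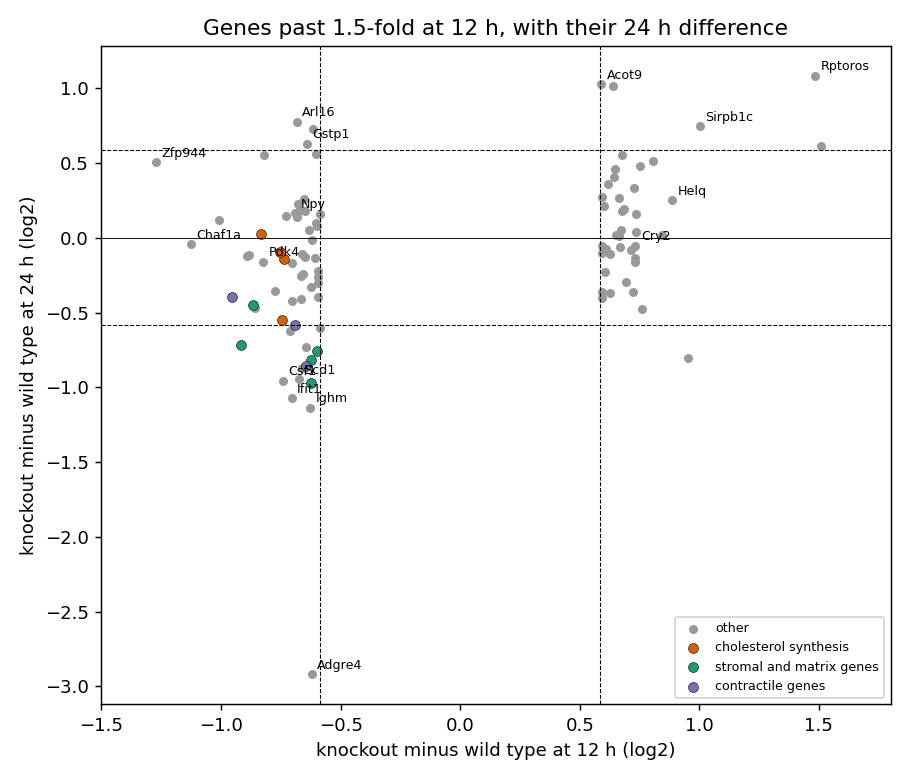
Difference at 24 h against difference at 12 h (both knockout minus wild type, log2) for the 101 genes past 1.5-fold at 12 h, with dashed lines at 1.5-fold. Of these, 20 lie past 1.5-fold on the same side at both times and 4 on opposite sides.

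Among the 15 lowest named differences were a chromatin assembly factor, an inflammasome-related protein and a metabolic kinase. Zfp944, a zinc finger gene, lay lowest, with 12 h levels of 5.42 (wild type) and 4.15 (knockout) against 4.75 and 5.25 at 24 h, so its sign turned from -1.27 to 0.50. Chaf1a, the large subunit of the factor that deposits histones behind replication forks, had levels of 5.03 and 3.91 at 12 h and of 4.64 and 4.60 at 24 h. Nlrp10, an NLR family protein, was at 5.37 and 4.36, with 4.82 and 4.94 at 24 h. In all 3 the knockout 12 h array was the lowest of the 4 and the wild-type 12 h array the highest, and the 24 h pair lay between them.
Pdk4, the pyruvate dehydrogenase kinase that shifts cells from glucose to fatty acid oxidation and a classic fatty acid-responsive gene, was at 5.32 (wild type) and 4.49 (knockout) at 12 h. The difference was -0.82, or 1.77-fold. Both genotypes had higher Pdk4 levels at 24 h, 6.29 and 6.13, and the difference there was -0.16. Nme1, a nucleoside diphosphate kinase, was at -0.82 at 12 h and 0.55 at 24 h. Zfp60 was at -0.88 and Clip3, a trans-Golgi linker protein, at -0.78, with 24 h differences of -0.11 and -0.36. The 12 h mean of Clip3 was under the level limit, which this gene passed through its 24 h levels. The remaining 8 of the 15 were sterol enzymes, stromal or contractile genes and Csf1, described with their groups.

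Higher in knockout were mostly dim genes of unrelated function. Rptoros, a non-coding transcript on the strand opposite to Rptor, had 12 h levels of 4.36 (wild type) and 5.84 (knockout), with 3.78 and 4.87 at 24 h. The knockout array was higher at both times, by 1.48 (2.80-fold) and 1.08. Sirpb1c, an activating signal-regulatory protein of myeloid cells, was at 5.33 and 6.34 at 12 h and at 4.86 and 5.60 at 24 h. Its family holds near-identical copies, so which copy the probe set measured is uncertain. Lyz1, one of the lysozyme genes, was at 5.56 and 6.24 at 12 h and 5.77 and 6.33 at 24 h, whereas its near-identical neighbour Lyz2 was at -0.21 and -0.38, so the pair went opposite ways and the split of signal between them is uncertain.
Cry2, a repressor of the circadian clock, had 12 h levels of 4.06 (wild type) and 4.79 (knockout) but 4.64 and 4.59 at 24 h. Mthfs, a folate enzyme, was at 4.86 and 5.58 and then at 5.32 and 5.24. For both genes the wild-type 12 h array stood apart from the rest on the low side, and the 24 h differences were -0.05 and -0.08.
Helq, a DNA helicase of cross-link repair, was at 0.89 and 0.25 at the 2 times. Gxylt1, a xylosyltransferase of Notch glycosylation, was at 0.81 and 0.52 on the brighter of its 2 probe sets. Its dim probe set was at -0.23 at 12 h. Qtrt2, a subunit of the enzyme that places queuosine in transfer RNA, was at 0.73 and 0.16. The others of the 15 were D11Wsu47e, Bambi-ps1, Apol9a, Kctd6, Rbm4b, Zfp62 and Zfp971, between 0.66 and 0.74 at 12 h. Of these 7 genes, D11Wsu47e, Kctd6 and Zfp971 were above 0 at 24 h and 4 were below, with Rbm4b, a splicing factor gene, the lowest at -0.36.

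Connective tissue genes were lower in knockout at both times. Of 44 stromal and matrix genes on the array 31 were kept, and 29 of these were below 0 at 12 h, with a median of -0.38 against 0.00 over all genes kept. Past 1.5-fold were 5, all lower. At 24 h all 31 were below 0, with a median of -0.64. Bmp1, the protease that trims procollagens, had 12 h levels of 5.05 (wild type) and 4.13 (knockout), with 5.47 and 4.75 at 24 h. Col6a1, a collagen VI chain, was at 5.98 and 5.12 and then at 6.30 and 5.85, on the brighter of its 2 probe sets, while the dim one was at -0.12 at 12 h. Ccn2, the connective tissue growth factor, was at 6.86 and 6.26 and then at 7.38 and 6.63. In all 3 the knockout array was the lower at each time.
Postn, the matrix protein periostin, had 12 h levels of 6.38 and 5.76, and Pdgfra, the platelet-derived growth factor receptor of fibroblasts, 4.29 and 3.66, which are differences of -0.62 in both. Among brighter members Col1a1, a type I collagen chain, was at 8.07 and 7.49, and Bgn, the proteoglycan biglycan, at 9.85 and 9.31. The exceptions above 0 were Mgp, an inhibitor of calcification, at 0.14 and Prrx1, a mesenchymal transcription factor, at 0.03. Matrix metalloproteinases and their inhibitors were on both sides at 12 h, with 7 of 16 genes above 0 and 9 below, a median of -0.02 and none past 1.5-fold. The gelatinase gene Mmp2 was lowest at -0.47, Mmp14, a membrane-bound collagenase, was at -0.39, and Mmp27 was highest at 0.43.

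Many of these are genes that fibroblasts express, and macrophage cultures from marrow can hold some of these cells. Which cells the signal came from was not measured. The 10 genes of a stromal cell marker list all belong to the stromal and matrix list, so their values are not a separate observation. All 10 were below 0 at 12 h, 7 of them past the level limit, and Col3a1, Lum and Thy1 were under it. Their summed linear levels were 676 (wild type) and 478 (knockout) at 12 h, then 1175 and 674 at 24 h. Over 30 macrophage identity genes the summed linear level was 43691 and 43477 at 12 h, and 50335 and 46254 at 24 h. In such pooled RNA, fewer cells of a type and less RNA per cell cannot be told apart. Markers of neutrophils, T and NK cells, mast cells, erythroid cells and monocytes had no member past the level limit.

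Contractile genes, the actin, myosin and calponin set driven by serum response factor and its partners, were lower in part. Of the 43 on the array 21 were kept, 17 below 0 and 4 above at 12 h, with a median of -0.16, and at 24 h the counts were the same with a median of -0.24. Actg2, smooth muscle gamma actin, had levels of 4.63 and 3.68 at 12 h and of 5.04 and 4.65 at 24 h. Cnn3, a calponin, was at 6.07 and 5.38 and then at 6.50 and 5.91. Ehd2, a protein of caveolae, was at 4.02 and 3.38 and then at 5.25 and 4.40. These were the 3 members past 1.5-fold at 12 h, and each was lower in knockout at both times. However, both 12 h levels of Ehd2 were under the level limit, as was the 12 h mean of Actg2. Both genes passed the limit through their 24 h levels.
Acta2, smooth muscle alpha actin and a marker of myofibroblasts, was among the bright genes, with levels of 8.84 and 8.28 at 12 h and of 9.65 and 8.96 at 24 h. Other bright members lay closer to 0 and on both sides of it. Myh9, non-muscle myosin, was at 0.02, Flna, the actin crosslinker filamin A, at 0.04 and Tpm3, a tropomyosin, at 0.21, whereas Actn1, alpha-actinin, was at -0.22, Vcl, the adhesion protein vinculin, at -0.23 and Cnn2, a calponin, at -0.16. Actb, which is not in the list, was at 0.05. The stromal markers given above moved with this list, and their part in it was not tested.
Promoters of these lists were searched on both strands for GGAATG, the core bound by TEAD factors, and for the CArG box bound by serum response factor, in the 250 bases before the start. GGAATG was found in 8 of 19 contractile genes with a promoter in the table (42.1%) and in 3 of 19 stromal and matrix genes (15.8%), against 11.9% of genes kept and 14.4% of all genes of the table. The CArG box was found in 3 of 19 contractile genes (Cnn2, Myl9 and Vcl), in 0 of the 19 stromal and matrix genes and in 1.28% of genes kept. Among the contractile genes with GGAATG, Actn4, Flna, Tagln2 and Tpm1 were between -0.03 and 0.04. The windows below were picked, after the values were seen, from genes with a match and a difference under -0.4. Shown are Acta2 at chr19:34255374-34255623 on the minus strand, Cald1, which encodes the actin-binding protein caldesmon, at chr6:34598254-34598503 on the plus strand, and Ccn1, a matrix protein of the CCN family, at chr3:145649986-145650235 on the minus strand, from GRCm38.p6 and RefSeq, with the match in capitals (in Ccn1 as its reverse complement):
Acta2: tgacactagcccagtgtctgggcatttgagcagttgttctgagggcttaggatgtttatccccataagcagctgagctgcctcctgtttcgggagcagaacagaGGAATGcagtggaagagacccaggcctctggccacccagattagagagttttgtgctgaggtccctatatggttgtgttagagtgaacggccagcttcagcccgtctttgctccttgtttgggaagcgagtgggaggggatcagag
Cald1: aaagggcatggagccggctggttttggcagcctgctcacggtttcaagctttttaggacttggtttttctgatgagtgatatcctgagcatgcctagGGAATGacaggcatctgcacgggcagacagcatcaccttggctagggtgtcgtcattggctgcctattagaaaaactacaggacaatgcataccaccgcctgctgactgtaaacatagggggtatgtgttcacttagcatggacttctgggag
Ccn1: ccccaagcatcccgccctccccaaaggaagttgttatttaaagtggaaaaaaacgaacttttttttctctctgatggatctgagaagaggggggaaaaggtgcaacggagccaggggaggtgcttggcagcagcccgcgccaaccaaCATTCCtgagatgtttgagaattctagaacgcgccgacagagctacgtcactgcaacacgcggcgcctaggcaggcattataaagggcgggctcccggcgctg
The matches begin 146, 153 and 103 bases before the start, and the window of the second start site of Cald1 holds none. Cald1 was at -0.44 and Ccn1 at -0.54 at 12 h, and at 24 h they were at -0.75 for both.

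**Figure D4:**
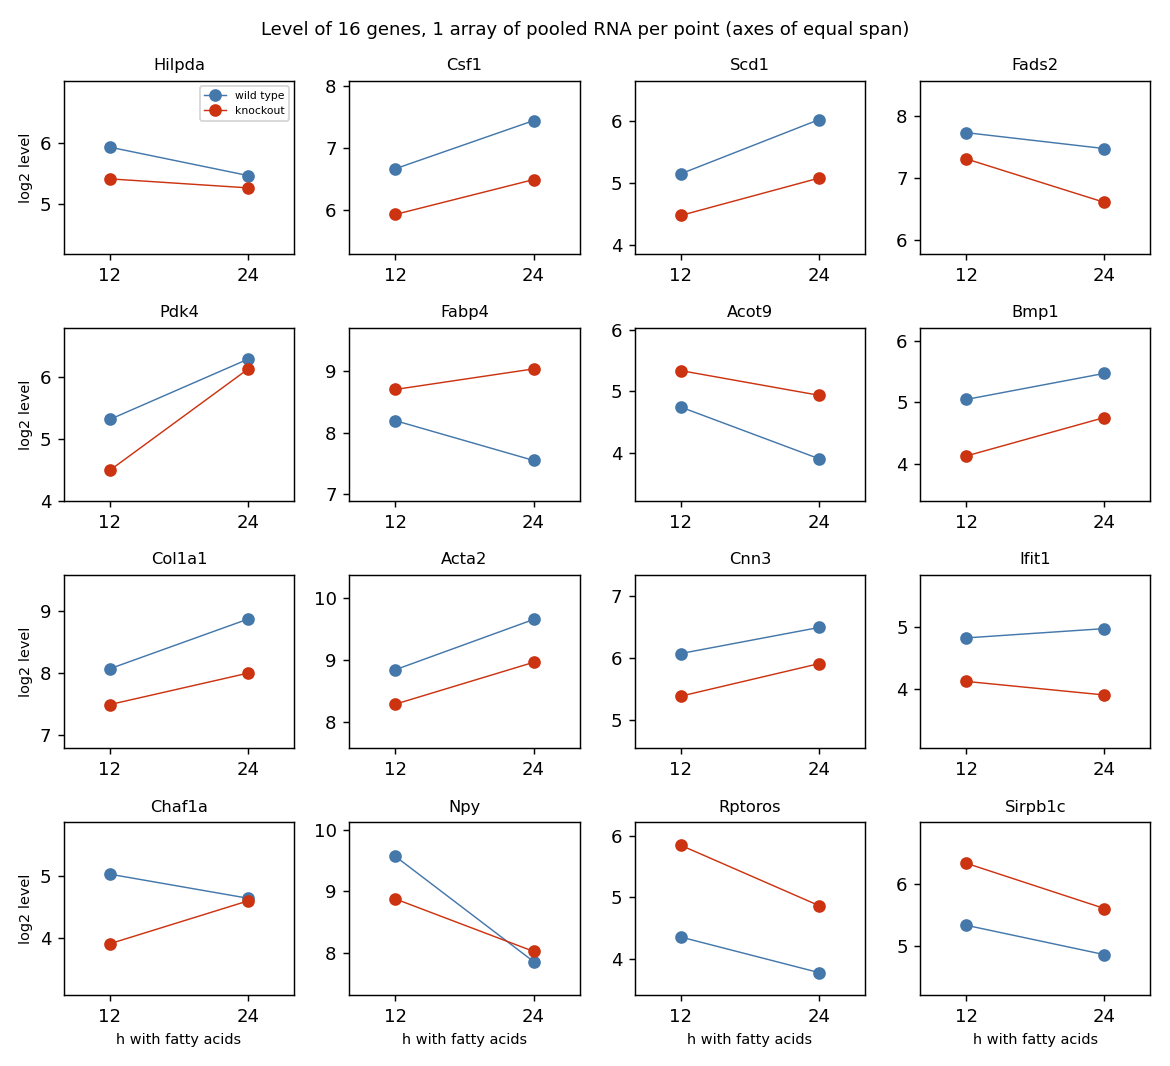
Log2 level of 16 genes after 12 h and 24 h in wild-type (blue) and knockout (red) macrophages, 1 array of pooled RNA per point, on axes of equal span. Csf1, Scd1, Bmp1, Col1a1, Acta2, Cnn3 and Ifit1 are lower in knockout at both times, Acot9, Fabp4, Rptoros and Sirpb1c higher at both, and Chaf1a and Pdk4 differ mainly at 12 h.

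Csf1, which encodes the growth factor that macrophages need for survival, was lower in knockout. The 12 h levels were 6.66 (wild type) and 5.92 (knockout), with 7.44 and 6.49 at 24 h. The knockout array was lower at both times, by 1.67-fold at 12 h. Its receptor gene Csf1r was near equal at 12 h, with levels of 11.54 and 11.61. Of the 8 colony-stimulating factor and receptor genes kept, 6 were above 0, among them Kitl, stem cell factor, at 0.47, and Csf1 was the only one past 1.5-fold. Fibroblasts also make CSF1, and the stromal markers were lower in the same arrays, and their part in the Csf1 difference was not tested. Sema7a, a membrane-bound semaphorin, was at -0.71 at 12 h and -0.62 at 24 h. Rgs16, a brake on G protein signalling, was at -0.65 and -0.73, while its relative Rgs1 was at 0.35 and 1.03. Bmp2, a bone morphogenetic protein gene, was higher at 12 h, with levels of 5.46 and 6.01, a difference of 0.55, and at 24 h it was at -0.14.

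Lists of genes that act on lipids had 12 h medians between -0.10 and 0.08, apart from cholesterol synthesis, whose genes were all below 0. Pnpla2, the lipase that HILPDA restrains, had levels of 9.19 and 9.22, and Plin2, the main droplet coat gene of macrophages, was at 11.93 in both arrays. Over 12 lipid droplet protein genes the median was -0.02 and none was past 1.5-fold, with Fitm2, which helps droplets bud from the ER, highest at 0.30. Over the 10 lipolysis genes kept, Hilpda included, the median was 0.04. So the coat and lipase transcripts stood within the spread of genes of their brightness.
Desaturation and fatty acid synthesis genes were mostly below 0, with 16 of 18 below, a median of -0.10 and 1 past 1.5-fold. Scd1, the stearoyl-CoA desaturase, had levels of 5.15 and 4.47 at 12 h and of 6.03 and 5.08 at 24 h. Fads2, the delta-6 desaturase, was at 7.73 and 7.31 and then at 7.48 and 6.61. The fatty acid synthase gene Fasn was at 7.87 and 7.54, and all of these were lower in knockout at both times. The 19 cholesterol synthesis genes, which share the SREBP factors with them, were all below 0 with a median of -0.46 at 12 h, and 13 were below 0 with a median of -0.11 at 24 h. Past 1.5-fold at 12 h were Hsd17b7, Fdft1, Fdps and Cyp51, and of these Fdps was at -0.55 at 24 h and the other 3 between -0.14 and 0.03.
Glycerolipid and sterol ester synthesis genes had 13 of 17 members below 0 and a median of -0.07, with none past 1.5-fold. The lowest were Agpat4, an acyltransferase, at -0.28, Cds1, which makes CDP-diacylglycerol, at -0.27, and Lpin2, a phosphatidate phosphatase, at -0.24.
Fatty acid uptake and activation genes were on both sides, with 8 of 15 above 0, 7 below, a median of 0.08 and none past 1.5-fold. Fabp4, the chaperone that carries fatty acids to PPAR gamma in macrophages, had 12 h levels of 8.19 (wild type) and 8.70 (knockout), with 7.55 and 9.03 at 24 h. Fabp3 was at 6.04 and 6.56 at 12 h but at 6.05 and 6.02 at 24 h. The Fabp4 difference of 0.51 was thus followed by a larger one of 1.48, whereas that of Fabp3, also 0.51, was not. Fabp5, another binding protein, was at 0.20 on its brightest probe set and between -0.02 and 0.19 on 3 others. Slc27a4, a fatty acid transporter that activates its cargo, went the other way at 12 h, with levels of 7.19 and 6.70. Acot9, a mitochondrial acyl-CoA thioesterase, was at 4.75 and 5.34 at 12 h and at 3.91 and 4.94 at 24 h, higher in knockout at both times.
Targets of PPAR, the receptors that fatty acids activate, had 9 of 14 members above 0 and a median of 0.03, with Pdk4 the single one past 1.5-fold. Genes of mitochondrial beta-oxidation stood at a median of 0.00, with 18 of 33 above 0, and LXR targets, which respond to oxysterols, at 0.03 over 15 genes. Sphingolipid genes had a median of -0.01 over 26 genes. None of these last 3 lists had a member past 1.5-fold.

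Interferon-stimulated and inflammation genes lay on both sides of 0 at 12 h, and 1.11% of all genes kept were past 1.5-fold. Of 39 interferon-stimulated genes, 17 were above 0 and 22 below at 12 h, with a median of -0.01 and 1 past 1.5-fold. Ifit1, an antiviral protein that binds foreign RNA, had 12 h levels of 4.83 (wild type) and 4.13 (knockout), with 4.98 and 3.91 at 24 h. It was lower in knockout at both times, but its family holds near-identical copies, so its signal may be mixed with theirs. Cmpk2, a nucleotide kinase induced by interferon, was at 5.08 and 4.52 at 12 h and was at -0.20 at 24 h. The 4 interferon gamma-induced GTPase genes kept were all below 0, with a median of -0.13, and Gbp9, a guanylate-binding protein, was lowest at -0.43. Zbp1, a nucleic acid sensor, was at -0.37, and Oas1g, an oligoadenylate synthetase, at -0.34, with 24 h differences of 0.02 and -0.57. Among the 17 interferon-stimulated genes above 0 at 12 h, Phf11b lay highest at 0.23, and Herc6 was at 0.18. The letters GAAANNGAAA, part of the interferon-stimulated response element, were found on either strand in 12 of 30 promoters of the list (40%), against 3.16% of genes kept and 3.46% of all genes of the table. The Ifit1 window, chr19:34640639-34640888 on the plus strand of GRCm38.p6, holds 2 matches as their reverse complement, in capitals, 104 and 85 bases before the start:
Ifit1: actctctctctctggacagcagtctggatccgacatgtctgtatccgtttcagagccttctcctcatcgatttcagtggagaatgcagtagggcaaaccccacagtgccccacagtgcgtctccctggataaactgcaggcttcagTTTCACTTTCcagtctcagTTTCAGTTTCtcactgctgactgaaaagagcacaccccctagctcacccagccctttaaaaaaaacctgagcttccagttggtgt
A match describes letters and says nothing of binding in these cells. Inflammatory cytokine and inflammasome genes had 20 of 31 members below 0, a median of -0.11 and none past 1.5-fold. Nfkbiz, an atypical IκB that directs secondary response genes, was lowest, with levels of 6.44 and 5.94 at 12 h and of 6.84 and 6.01 at 24 h. Toll-like receptors and their adaptors had a median of 0.03 over 21 genes. Cd274, which encodes the T cell inhibitor PD-L1, was chosen after its values were seen and had levels of 5.55 and 6.13 at 12 h and of 5.75 and 6.40 at 24 h, higher in knockout at each time.

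Stress pathway genes leaned to the positive side by small amounts. Of 25 genes of the ATF4 response, the amino acid and ER stress program, 16 were above 0, the median was 0.10 and none was past 1.5-fold. Slc7a1, a cationic amino acid transporter, had levels of 5.23 and 5.75 at 12 h and of 5.18 and 5.97 at 24 h. Mthfd2, a mitochondrial folate enzyme, was at 6.78 and 7.15 and then at 6.32 and 7.04. Ddit3, which encodes the stress factor CHOP, was at 5.86 and 6.21 and then at 5.48 and 6.21. In these 3 genes the difference was positive at both times and larger at 24 h, whereas Jdp2, an AP-1 family repressor in the same list, was at -0.52 and 0.05.
ER chaperones and folding enzymes had 26 of 31 members above 0, with a median of 0.06 and none past 1.5-fold. Creld2, a secreted ER stress protein, had levels of 7.09 and 7.37, Txndc5, a protein disulfide isomerase, 7.94 and 8.17, and Pdia3, another, 10.69 and 10.88. These are differences of 0.28, 0.23 and 0.19, and Hspa5, the main ER chaperone BiP, was at 0.02. Cytosolic heat shock genes had 11 of 15 members above 0 and a median of 0.10.
The ER stress element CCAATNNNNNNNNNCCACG, read on both strands, was found in 9 of 27 promoters of the ER chaperone list (33.3%), against 0.163% of genes kept and 0.13% of all genes of the table. Its last letters overlap those of ACGTG, read on the other strand, which was found in 13 of these 27 promoters (48.1%). Creld2 is shown as the list member with the largest 12 h difference. Its window is chr15:88819396-88819645 on the plus strand of GRCm38.p6, with the reverse complement of the element in capitals 126 bases before the start:
Creld2: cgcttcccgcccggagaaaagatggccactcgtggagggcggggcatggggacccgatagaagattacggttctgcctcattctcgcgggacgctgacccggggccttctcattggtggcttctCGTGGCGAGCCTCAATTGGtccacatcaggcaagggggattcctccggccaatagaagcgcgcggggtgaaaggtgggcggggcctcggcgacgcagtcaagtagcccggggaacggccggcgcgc
Lysosomal genes had 38 of 52 members above 0 with a median of 0.02, and V-ATPase subunits, the pump that acidifies lysosomes, 13 of 16 above 0 with a median of 0.04. Atp6v0a1 and Atp6v0d1, subunits of that pump, were both at 0.17. Autophagy genes were split evenly, 21 above and 21 below 0, and Vmp1, an ER protein needed to form autophagosomes, was past 1.5-fold with levels of 4.57 and 3.92 at 12 h and of 4.23 and 4.41 at 24 h. Targets of NRF2 and glutathione genes had 19 of 32 members below 0 and a median of -0.01.

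**Figure D5:**
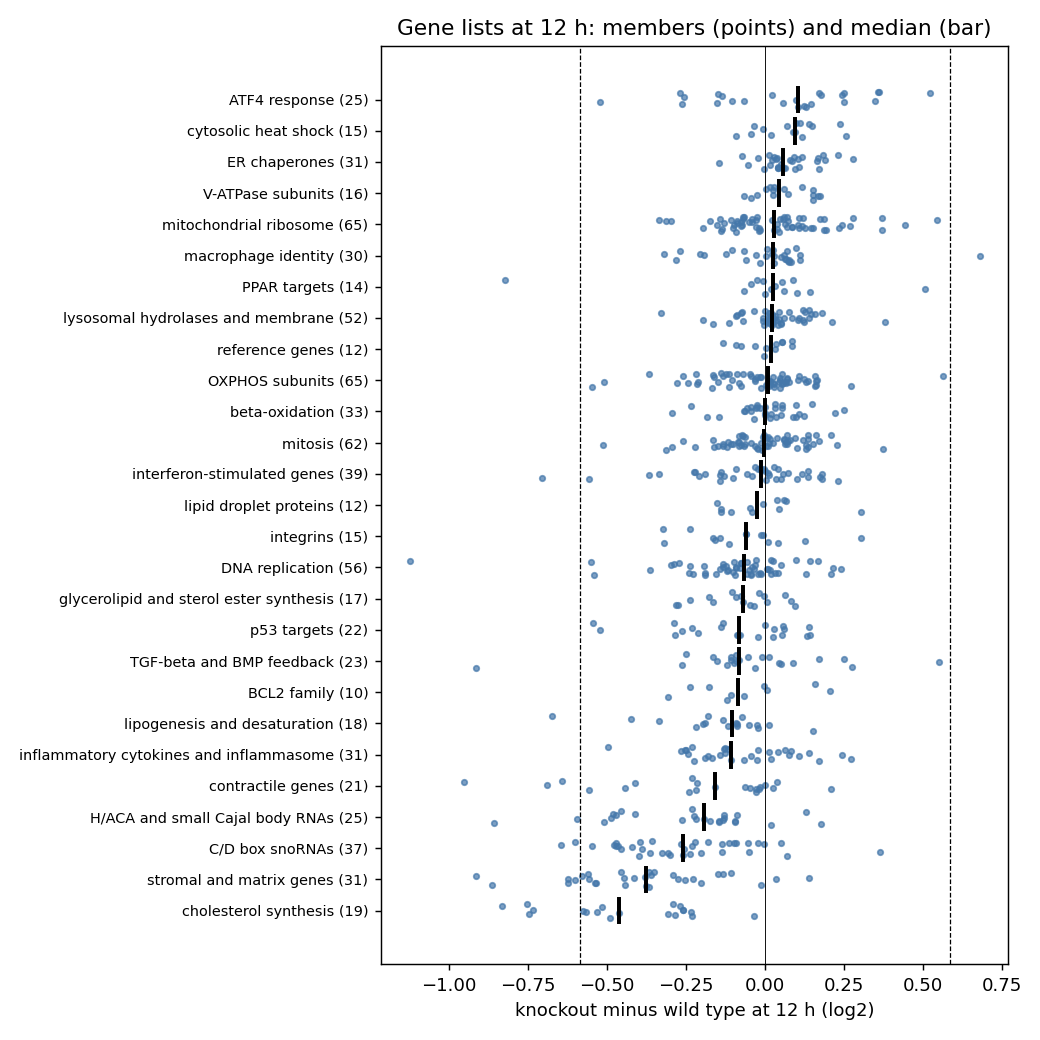
Difference between knockout and wild type at 12 h (log2) for the members kept of 27 gene lists and families, 1 point per gene with the median as a bar, the number of members in parentheses and dashed lines at 1.5-fold. Cholesterol synthesis and stromal and matrix genes have the lowest medians, followed by both classes of small nucleolar RNA, and the highest median, that of the ATF4 response, is 0.10.

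DNA replication genes lay mostly below 0 at 12 h and mitotic genes on both sides. Of 56 replication and repair genes 40 were below 0 at 12 h, with a median of -0.07, and Chaf1a was the only one past 1.5-fold. Gins2, a part of the replicative helicase, had levels of 5.64 and 5.09 at 12 h and of 5.50 and 6.03 at 24 h. The sign was thus not shared with the 24 h arrays for Gins2. Over the replication list, 35 of the 56 genes were below 0 at 24 h, with a median of -0.04. Of 62 mitosis genes 30 were above and 32 below 0 at 12 h, with Birc5, a chromosomal passenger protein also called survivin, at -0.51, while at 24 h 48 of the 62 were below 0 with a median of -0.17. The difference between the lists was not tested.
Targets of p53 had 14 of 22 members below 0 and a median of -0.08, with Trp53inp1, a stress-induced autophagy and death protein, at levels of 7.27 and 6.72, and Gadd45g, a growth arrest gene, at -0.52. BCL2 family genes had 7 of 10 members below 0. Clock genes had 9 of 15 below 0, among them Arntl, the activator of the clock, at -0.48, and Cry2 was past 1.5-fold on the higher side. Bhlhe41, another clock repressor, was at 8.48 and 8.89 at 12 h and at 8.07 and 8.83 at 24 h, positive at both times.

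The large housekeeping complexes were balanced at 12 h. Respiratory chain and ATP synthase subunits had 34 members above and 31 below 0 with a median of 0.01, mitochondrial ribosomal proteins had the same counts with a median of 0.03, and cytosolic ribosomal proteins had 24 above and 23 below with a median of 0.02. At 24 h the mitochondrial ribosomal proteins had 55 of 65 members above 0 and a median of 0.17. Cox5b, a cytochrome oxidase subunit, was the bright exception, with levels of 7.90 and 8.46 at 12 h and of 7.80 and 7.79 at 24 h. Its second, dim probe set was at -0.56 at 12 h, so the probe sets of this gene disagree. Proteasome genes had 26 of 42 members above 0, with the assembly chaperone gene Psmg3 past 1.5-fold at 0.61. The 12 reference genes had a median of 0.02, with Gapdh at 11.82 and 11.81.

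Macrophage identity genes were near equal between the genotypes at 12 h. Of 30 such genes 19 were above 0, the median was 0.03, and Lyz1 was the only one past 1.5-fold. At 24 h their median was -0.13. Members of the MS4A and TMEM176 family, membrane proteins of myeloid cells, had a median of -0.07 at 12 h and of -1.23 at 24 h over 8 genes. Tmem176b had levels of 6.89 and 6.55 at 12 h and of 8.83 and 7.35 at 24 h, so the larger gap came with a higher wild-type level at the later time. A list of class II MHC genes that also holds the costimulatory genes Cd40 and Cd80 had a median of 0.11 at 12 h over 7 genes. At 24 h its median was -0.50. The 8 Fc receptor genes kept had 7 above 0 and a median of 0.08. Integrin genes had 11 of 15 members below 0. Adgre4, an adhesion receptor of macrophages, had levels of 3.23 and 2.61 at 12 h, both under the level limit, so its 12 h difference of -0.62 is one between dim signals. Its levels at 24 h were 7.0 and 4.08. The heavy chain gene Ighm was at 6.92 and 6.30 at 12 h and 9.49 and 8.35 at 24 h on its brightest probe set, while 5 of its 6 dimmer probe sets had 12 h differences above 0, and none of the other B cell markers passed the level limit.

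Small nucleolar RNAs, which guide chemical modification of ribosomal and other RNAs, were lower as a class in the knockout 12 h array. This class was picked after its values were seen, and 1.11% of all genes kept were past 1.5-fold. Of the 37 C/D box genes named Snord that were kept, which guide methylation, 34 were below 0, with a median of -0.26 and 2 past 1.5-fold. Their median levels at 12 h were 7.61 (wild type) and 7.19 (knockout), against 7.37 and 7.38 at 24 h. Of the 25 genes named Snora or Scarna, most of which guide pseudouridylation, 22 were below 0, with a median of -0.19. At 24 h the medians were 0.07 and 0.05, with 20 and 17 members above 0. The knockout 12 h array was the lowest of the 4 for 24 of the 37 and 15 of the 25. Genes picked for low 12 h differences tend to show this, and the share over all genes kept was not counted. By median level of the Snord genes, the wild-type 12 h array was the highest of the 4 and the knockout 12 h array the lowest. Snora30 was lowest at -0.86, and among brighter members Snord22 had levels of 11.17 and 10.71 at 12 h and of 10.95 and 10.90 at 24 h. Snord104 was at 9.54 and 9.06 and then at 9.14 and 9.36. Genes named Mir, which are microRNA hairpins and hosts, had 31 of 55 members above 0 and a median of 0.09. That set is not made only of short transcripts, and it was dimmer, with a median level of 5.08 against 7.43 for the Snord genes. The snoRNA host genes had 7 of 10 below 0 and a median of -0.05. Recovery of small RNA was not measured here, and its part in the snoRNA difference was not tested.

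Bright genes give the least scatter, so their larger differences are given separately. In the upper 2 of the 5 level bands, where 3 genes were past 1.5-fold, these were Npy, Fdft1 and Ighm. The bands use the mean of all 4 arrays, and these 2 start at 7.26. Ighm, at 6.92 and 6.30 at 12 h, was under that and lay in these bands through its 24 h levels. Npy, neuropeptide Y, had 12 h levels of 9.57 (wild type) and 8.88 (knockout), with 7.86 and 8.03 at 24 h. It was thus highest in the wild-type 12 h array and its difference turned to 0.16. Fdft1, squalene synthase, was at 8.38 and 7.63 at 12 h and at 7.14 and 7.04 at 24 h, also with the wild-type 12 h array on top. Nedd4, a ubiquitin ligase, was at 7.15 and 6.61 at 12 h and at 8.64 and 7.81 at 24 h, lower in knockout at both. Its 12 h levels were also under 7.26. Slc36a4, a lysosomal amino acid transporter, was at 8.26 and 8.79 at 12 h, the largest positive difference of these bands after Cox5b at 0.53, and at -0.14 at 24 h.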

How the data were processed

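The 4 samples were assigned to genotype and time from their labels, and the value table held 0 columns of other samples. The deposited values are log2 levels per probe set of a whole-transcript array, made by the authors with RMA (version not given), per the submitters' processing notes. RMA corrects background, brings the arrays to near-equal distributions and combines the probes of a set, which hides any change common to all transcripts. The values, from 0.627 to 13.2 with column medians of 2.70 to 2.73, give the log2 scale. Of 41345 probe sets, 23521 had 1 symbol in the platform annotation, 1814 several and 16010 none listed, and only the first were used. The brightest probe set stood for each of 1082 genes with several. RefSeq (GRCm38.p6) gave gene order and promoter sequences, and 9081 of the 9089 genes kept matched its gene table.

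Differences are log2 levels, knockout minus wild type, within a time. No test was run, and the number of arrays limits the precision. Named were Hilpda, the 15 highest and 15 lowest differences without clone, predicted-gene, small RNA and olfactory receptor names, list members past 1.5-fold or else up to 3 with the largest differences, and Actb and Gapdh. Other genes were named after their values were seen. The members and the 78 gene lists were chosen with earlier results of these data known. Python 3.11.15 with pandas 2.3.3 and statsmodels 0.14.6 was used, and the steps were tested on simulated data. Alternatives were other level limits, fold limits, normalizations and the mean over probe sets.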

Additional observations from a re-analysis of the deposited data

Results flagged for a closer look

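Past 1.5-fold at both times but in opposite directions were 4 genes, and whether their differences at 12 h and 24 h are unlike was not tested. Arl16, a small GTPase of the ARF-like family, was at -0.68 at 12 h and 0.78 at 24 h, with log2 levels of 5.01 in wild type and 4.33 in knockout and then of 4.33 and 5.11. Gstp1, a glutathione transferase gene with near-identical copies, was at -0.64 and 0.63, with levels of 7.06 and 6.42 and then of 7.05 and 7.68. Its wild-type levels were alike at the 2 times and its knockout levels lay on either side of them. Mir101c was at -0.61 and 0.73, with levels of 5.46 and 4.85 and then of 3.35 and 4.08. Olfr1360, an olfactory receptor gene, was at 0.95 and -0.80, with levels of 3.79 and 4.74 and then of 4.90 and 4.10. Apart from Gstp1 these genes were dim.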

How the results depend on the processing

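The counts of genes past 1.5-fold depended on the level limit and the fold. At the 40th percentile of level 200 genes were higher and 187 lower, with no limit 316 and 312, and at the 80th percentile 0 and 8. At 1.3-fold 207 were higher and 253 lower, and at 2-fold 3 and 3. The other alternatives kept both counts within 1.5 times, including the lower count of 47 without the sterol, stromal and contractile lists, which was chosen after seeing the data. Of the 101 genes, 101, 98, 99 and 94 were still past 1.5-fold after centring, quantile normalization, loess and the mean over probe sets. Among the 44 named genes past 1.5-fold, Acot9 at 0.58 and Ccn2 at -0.58 dropped below it after quantile normalization, and Ccn2 at -0.44 and Col6a1 at -0.49 with the mean over probe sets. Of the 67 list medians 26 changed sign under at least 1 alternative, none of them over 0.09 in size as reported, and 41 kept their sign. The CXC chemokine median moved from -0.02 to -0.39 with the limit at the 40th percentile, and the clock median from -0.02 to 0.17 with it at the 80th. No paired analysis was possible because each group is 1 array and the labels give no replicate numbers, and for the same reason no array could be left out. Dim genes, whose SD was 0.27, limit what can be read from single values.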

Other observations

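Probe sets without a single symbol were not used for named genes. Of these, 4094 passed the level limit, and at 12 h 288 lay past 1.5-fold on the higher side and 228 on the lower. That is a larger share than for the genes kept, of which 0.462% were higher and 0.649% lower. Zinc finger genes named Zfp, looked at after Zfp944, Zfp60 and Zfp62 were seen among the largest differences, had 5 of 202 members past 1.5-fold (2.48%) against 1.08% of other genes. Their median level was 5.60 against 6.85, and their median difference was 0.01. No 2 genes past 1.5-fold at 12 h lay next to each other among the genes kept.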
